A study of Mus musculus with 4 samples.

Results

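The 10 genes described here are markers by which skin fibroblasts and their subsets are recognised, and they were taken by name: the platelet-derived growth factor receptors Pdgfra and Pdgfrb, the surface peptidases Dpp4 and Fap, the surface or secreted markers Pi16, Cd34 and Ly6a, the matrix genes Dpt and Mfap5, and the transcription factor Twist2. All 10 were among the 24441 genes of the deposited table. They were measured by RNA sequencing of skin from 2 WT and 2 GSDMD KO mice, all female C57BL/6 animals aged 8 weeks. Every mouse, WT or KO, received bleomycin (BLM) under the skin on alternate days for 28 days, a treatment that scars the skin and serves as a model of scleroderma, and no skin without BLM was analysed here. GSDMD forms the membrane pores through which cells die by pyroptosis. The KO mice were made with Cas9 in C57BL/6 eggs, so the knockout was not restricted to fibroblasts. The comparison asks whether the skin of GSDMD KO mice holds a different level of these fibroblast RNAs after BLM.

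Dermal fibroblasts make the collagen and elastic framework of the skin, and in scleroderma they are the cells that overproduce it. They come in subsets. Papillary fibroblasts lie under the epidermis, reticular fibroblasts fill the deeper dermis, and a population around vessels and in the fascia, marked by Pi16, Dpp4, Ly6a and Cd34, is regarded as a reserve from which other fibroblasts can arise. Pdgfra is found on nearly all of them, whereas Fap is a mark of activated fibroblasts in wounds, fibrosis and tumours.

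The 2 KO mice departed from WT in opposite directions for most fibroblast markers. KO replicate 2 had the lowest level of the 4 libraries for 10 of 10 markers, as in 33.3% of all tested genes, while KO replicate 1 had the highest level for 8 of 10, as in 18.9% of all tested genes. Under other scalings of the libraries the second count was 10 (TPM) or 7 (upper-quartile and median-ratio). For the 8 markers the KO libraries lay on either side of the WT libraries, and 0 of 10 markers were called at an adjusted p under 0.05 with an absolute log2 fold change above 1, beside 0% of all tested genes. The fold between the KO libraries ran from 2.05 for Ly6a to 100 for Pi16.

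The libraries also differed within a genotype. Gsdmd itself reached 14.0 and 18.2 FPKM (fragments per kilobase of transcript, scaled to the depth of the library) in WT skin and 3.53 and 2.26 FPKM in KO skin. On the first principal component, which held 74.1% of the variance of all tested genes, the WT libraries lay at -27.7 and -53.9, KO replicate 1 lay at 6.17 and KO replicate 2 lay far out at 75.4. KO replicate 2 also had 4 of 40 Y-linked genes above 0, with a sum of 1.78 FPKM, although the mice were labelled female, and the other 3 libraries had 0. Depth was estimated such that 1 fragment on 1 kb of transcript was worth 0.0576 to 0.0782 FPKM, most in KO replicate 2, the shallowest library, and FPKM values are already divided by depth. The fold changes of the markers and the medians of the lists are therefore given below with and without KO replicate 2. No source says more of the replicates than their numbers, so p-values measure the spread between these libraries. An exact permutation test of 2 against 2 libraries cannot give a p below 0.333.

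**Figure D1:**
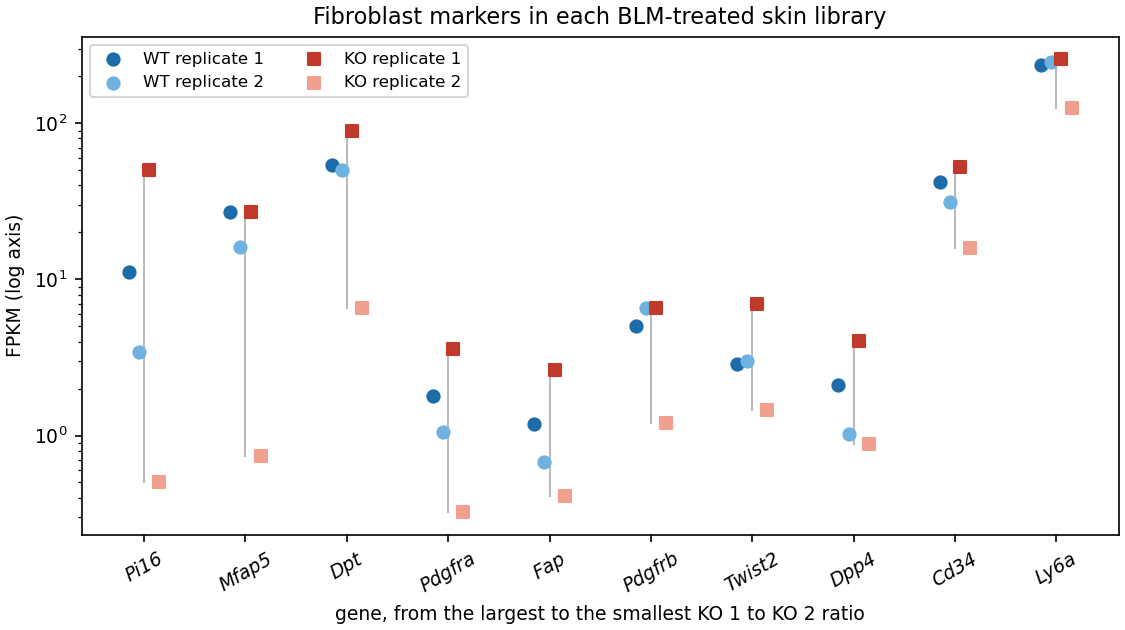
Level of each fibroblast marker in each library, in FPKM on a log axis, with WT libraries as blue circles, KO libraries as red squares and a grey line over the range of the 4 libraries. KO replicate 2, in pale red, is the lowest point for all 10 genes, and KO replicate 1 is the highest for 8 of them.

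Since the markers moved together between the KO libraries and since Twist2 binds E-boxes (the letters CANNTG), the promoters of 4 markers are shown. They run from 250 bases before to 50 bases after the RefSeq start on assembly GRCm38.p6, whereas the expression table uses mm9. Capitals mark every E-box. Dpt, at chr1:164796413-164796712 on the plus strand, held 7 E-boxes, and Pdgfra, at chr5:75152001-75152300 on the plus strand, held 2. Pi16, at chr17:29318632-29318931 on the plus strand, held 1, and Twist2, at chr1:91801211-91801510 on the plus strand, held 0.
Dpt: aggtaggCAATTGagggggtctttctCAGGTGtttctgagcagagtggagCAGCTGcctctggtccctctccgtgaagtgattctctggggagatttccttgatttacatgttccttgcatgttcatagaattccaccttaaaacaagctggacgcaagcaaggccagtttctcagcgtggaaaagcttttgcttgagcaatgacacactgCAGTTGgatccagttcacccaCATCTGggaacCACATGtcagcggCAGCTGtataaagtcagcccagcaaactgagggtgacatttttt
Pdgfra: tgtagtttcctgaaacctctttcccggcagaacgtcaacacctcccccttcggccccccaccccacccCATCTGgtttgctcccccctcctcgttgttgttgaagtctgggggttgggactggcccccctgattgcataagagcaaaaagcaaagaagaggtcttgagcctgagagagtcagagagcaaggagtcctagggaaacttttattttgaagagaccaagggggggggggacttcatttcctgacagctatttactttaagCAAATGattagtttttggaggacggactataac
Pi16: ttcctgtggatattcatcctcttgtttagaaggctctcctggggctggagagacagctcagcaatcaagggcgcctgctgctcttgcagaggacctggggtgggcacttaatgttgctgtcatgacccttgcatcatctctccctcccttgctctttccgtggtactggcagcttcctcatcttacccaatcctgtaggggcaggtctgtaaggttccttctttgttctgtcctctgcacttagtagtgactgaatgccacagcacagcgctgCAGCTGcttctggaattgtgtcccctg
Twist2: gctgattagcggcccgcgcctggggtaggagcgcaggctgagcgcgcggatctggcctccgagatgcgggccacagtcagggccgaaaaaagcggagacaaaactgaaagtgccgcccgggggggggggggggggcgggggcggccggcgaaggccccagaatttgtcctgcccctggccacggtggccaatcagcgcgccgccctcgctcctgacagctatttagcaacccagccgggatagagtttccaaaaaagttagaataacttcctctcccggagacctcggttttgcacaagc
The Twist2 promoter differed from the other 3 in its base composition, with 64.7% G or C and 25 CpG dinucleotides, beside 48.7% and 4 for Dpt, 51% and 5 for Pdgfra and 53.3% and 3 for Pi16. The median over all 32851 promoters was 52.7% and 7 CpG. Promoters of 6 markers were matched by symbol, and 4 of these 6 held an E-box, a motif present in 72.3% of all promoters. The narrower form CATNTG, counted among the E-boxes too, was in 2 of 6 and in 39.4% of all promoters. On both strands, the TATA box TATAAA was in 2 of 6 (13.6% of all promoters), CCAAT in 2 of 6 (37.4%), the GC box GGGCGG in 1 of 6 (35.7%), the TEAD site GGAATG in 1 of 6 (14.7%) and the AP-1 site TGANTCA in 0 of 6 (7.81%). Counted in bases before the start, TATAAA began at 227 in Dpp4 and at -12, past the start, in Dpt. All these motifs are matches of letters in a window and not bound sites.

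The PDGF receptors are tyrosine kinases that drive fibroblast growth and migration. Pdgfra (mm9 chr5:75548275-75594231) is the general fibroblast receptor, and Pdgfrb (mm9 chr18:61204803-61244721) is carried by fibroblasts and by the pericytes and smooth muscle of vessels. Pdgfra stood at 1.79 and 1.06 FPKM in WT mice, against 3.61 and 0.323 FPKM in their KO counterparts. KO replicate 1 was thus above both WT libraries and KO replicate 2 was below both. The mean was 1.42 ± 0.518 FPKM in WT and 1.97 ± 2.32 FPKM in KO skin (SD, n = 2). Between genotypes Pdgfra differed by 0.04 on the log2(FPKM + 1) scale, KO minus WT (SE 0.62, 95% interval -1.55 to 1.64, Benjamini-Hochberg adjusted p = 0.972 in limma), and its sign turned under upper-quartile scaling (-0.01), median-ratio scaling (-0.02), TPM scaling (-0.03) and the smaller pseudocounts 0.5 (-0.04) and 0.1 (-0.24). The level in KO replicate 2 rested on about 27.1 fragments.

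Pdgfrb had another order than Pdgfra in the deposited values. It stood at 5.05 and 6.60 FPKM in WT skin, with 6.56 and 1.21 FPKM for KO replicates 1 and 2, so WT replicate 2 was the highest library and KO replicate 1 lay within the WT range, by a margin so small that under TPM scaling KO replicate 1 was the highest. The log2 fold change of Pdgfrb was -0.73 (SE 0.61, adjusted p = 0.531, 95% interval -2.29 to 0.83). KO replicate 1 was 1.13 times the WT mean for Pdgfrb and 2.54 times the WT mean for Pdgfra. In KO replicate 2, by contrast, the receptors were lower by similar factors, with the WT mean 4.83 times its Pdgfrb level and 4.40 times its Pdgfra level.

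The ligands of these receptors followed them only in part, with KO replicate 2 lowest for Pdgfb, Pdgfc and Pdgfd but not for Pdgfa. Pdgfa, which binds Pdgfra, stood at 12.8 and 12.9 FPKM in the WT mice, compared with 10.1 and 11.9 FPKM in the KO mice, with KO replicate 2 above KO replicate 1. Pdgfb, made by endothelium and platelets, stood at 14.8 and 19.5 FPKM in WT mice, against 14.5 and 8.25 FPKM in their KO counterparts. Pdgfc stood at 4.64 and 3.02 FPKM in WT skin, with 2.69 and 1.67 FPKM for KO replicates 1 and 2. In these 3 tested ligands each KO library lay under both WT libraries, an arrangement found in 20.5% of all tested genes and in 0 of the 10 markers. The log2 fold changes were -0.21 for Pdgfa, -0.59 for Pdgfb and -0.60 for Pdgfc, and the lowest adjusted p was 0.365. Their median was -0.59, and -0.31 without KO replicate 2. Pdgfd, a ligand of Pdgfrb, was not tested because it reached 1 FPKM in KO replicate 1 alone (1.55 FPKM, beside 0.139 FPKM in KO replicate 2 and 0.950 and 0.986 FPKM in WT skin). As for Pdgfra, KO replicate 1 was its highest library and KO replicate 2 its lowest, where its level was under the 0.234 FPKM that 3 fragments on 1 kb are worth in that library, so no ratio is given.

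Dpp4 and Fap encode related serine peptidases anchored in the cell membrane, and they lie near each other on chromosome 2 (mm9, Dpp4 62168129 to 62250288 and Fap 62338992 to 62412078, both on the minus strand). Dpp4, also called CD26, clips short peptides and marks fascia and papillary lineages. It stood at 2.11 and 1.02 FPKM in the WT mice, compared with 4.05 and 0.885 FPKM in the KO mice. Fap stood at 1.19 and 0.676 FPKM in WT mice, against 2.63 and 0.409 FPKM in their KO counterparts. For both peptidases the order was the same, with KO replicate 1 highest, then WT replicate 1, WT replicate 2 and KO replicate 2. KO replicate 1 was 2.59 times the WT mean for Dpp4 and 2.82 times for Fap. The log2 fold changes were 0.30 for Dpp4 (SE 0.54, adjusted p = 0.776, 95% interval -1.07 to 1.67) and 0.24 for Fap (SE 0.50, adjusted p = 0.807, 95% interval -1.04 to 1.52). Fap was the lowest of the markers in WT skin, and about 14.4 fragments stood behind its value in KO replicate 2. An exon of Dpp4 overlaps Gm13561 on the other strand, so reads of that gene could be counted with it where strand was not used.

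Pi16 was the most variable marker. It encodes a secreted or membrane-bound peptidase inhibitor and marks adventitial fibroblasts (mm9 chr17:29455826-29465847). It stood at 11.2 and 3.41 FPKM in WT skin, with 50.5 and 0.503 FPKM for KO replicates 1 and 2. KO replicate 1 was 6.93 times the WT mean, and the WT mean was 14.5 times KO replicate 2. The WT libraries also differed by 3.27 times, more than for any other marker. Its log2 fold change was 0.26, with a standard error of 1.67, an adjusted p of 0.943 and a 95% interval from -4.01 to 4.54, and with a pseudocount of 0.1 it was -0.19. About 1900 fragments stood behind its value in KO replicate 1 and about 17.7 behind that in KO replicate 2.

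Cd34 and Ly6a are surface markers that fibroblasts share with other cells. Cd34, a sialomucin, is also on endothelium and on the stem cells of the hair follicle bulge (mm9 chr1:196765014-196787486). Ly6a, or Sca-1, is a lipid-anchored protein that endothelium and lymphocytes carry too and that interferon raises (mm9 chr15:74825306-74828461). Cd34 stood at 42.1 and 31.5 FPKM in the WT mice, compared with 52.4 and 15.9 FPKM in the KO mice. Ly6a stood at 237 and 246 FPKM in WT mice, against 257 and 125 FPKM in their KO counterparts. The KO libraries thus differed by 3.30 times for Cd34 and by 2.05 times for Ly6a, the smallest ratios of the 10 markers. The log2 fold changes were -0.32 for Cd34 (SE 0.58, adjusted p = 0.778, 95% interval -1.80 to 1.16) and -0.43 for Ly6a (SE 0.39, adjusted p = 0.565, 95% interval -1.43 to 0.58). Of the 50-base stretches of the Ly6a transcript, 4.42% also occur in Ly6c2 or Ly6i, and none of those of the other 9 markers occur in another gene. The exons of Cd34 overlap Gm16897 on the other strand.

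Dpt and Mfap5 are matrix genes, and with Pi16 they differed most between the KO libraries. Dpt encodes dermatopontin, which binds decorin and helps collagen fibrils to form (mm9 chr1:166726862-166754397). It stood at 54.3 and 50.6 FPKM in WT skin, with 89.4 and 6.58 FPKM for KO replicates 1 and 2. The WT libraries were close, at 52.4 ± 2.64 FPKM, while the KO libraries averaged 48.0 ± 58.6 FPKM (SD, n = 2), so that similar means hid a 13.6-fold difference between the KO mice. Mfap5, also called MAGP-2, is a microfibril protein that binds fibrillin in elastic fibres (mm9 chr6:122463601-122479305). It stood at 27.1 and 16.2 FPKM in the WT mice, compared with 27.0 and 0.744 FPKM in the KO mice. KO replicate 1 was thus level with WT replicate 1, and the higher of the pair under TPM scaling, and KO replicate 2, with about 14.3 fragments, was lower than KO replicate 1 by 36.2 times. The log2 fold changes were -1.03 for Dpt (SE 1.14, adjusted p = 0.631, 95% interval -3.94 to 1.88) and -1.66 for Mfap5 (SE 1.29, adjusted p = 0.505, 95% interval -4.95 to 1.64). The fold change of Mfap5 was the largest of the 10 markers in either direction.

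Twist2, or Dermo1, is a basic helix-loop-helix factor of the embryonic and adult dermis (mm9 chr1:93698037-93744611). It stood at 2.87 and 3.02 FPKM in WT mice, against 6.95 and 1.46 FPKM in their KO counterparts. The WT libraries agreed within 0.112 FPKM (SD), KO replicate 1 was 2.36 times their mean and KO replicate 2 was lower than it, the WT mean being 2.02 times its level. For Twist2 the log2 fold change came to 0.16 (SE 0.58, adjusted p = 0.890, 95% interval -1.31 to 1.64).

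Compared per length, Ly6a was the most abundant marker, rank 1, in every library, and Dpt and Cd34 followed it. Dpt ranked 2 in the WT libraries and KO replicate 1 and 3 in KO replicate 2, where Cd34 ranked 2. Pi16 ranked 4 in KO replicate 1, 5 and 6 in the WT libraries and 8 in KO replicate 2. Mfap5 went from 4 in both WT libraries to 5 in KO replicate 1 and 7 in KO replicate 2. Twist2 went the other way, from 7 in WT skin to 4 in KO replicate 2. Pdgfra and Fap ranked 8 to 10 throughout. The markers were not lowered by 1 common factor in KO replicate 2, since the WT mean was 29.1 times its level for Mfap5 and 1.77 times its level for Dpp4.

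Over the 10 markers, 5 log2 fold changes were below 0 and 5 above 0 (6 and 4 under TPM, upper-quartile or median-ratio scaling), with a median of -0.14 beside 0.11 for all 13027 tested genes. Adjusted p-values ran from 0.505 to 0.972, and the lowest unadjusted p was 0.255. At an unadjusted p under 0.05, again with an absolute log2 fold change above 1, 0 of 10 markers were lower, beside 4.14% of all genes (539 genes), and 0 of 10 were higher, beside 6.16% (802 genes). With median-ratio factors these counts became 700 genes lower and 616 higher, the median of all genes moved from 0.11 to -0.01 and that of the markers from -0.14 to -0.24. Both KO libraries above both WT libraries was seen for 0 of 10 markers and for 35.3% of all genes. In bulk skin, fewer fibroblasts and less of these RNAs per fibroblast cannot be told apart.

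**Figure D2:**
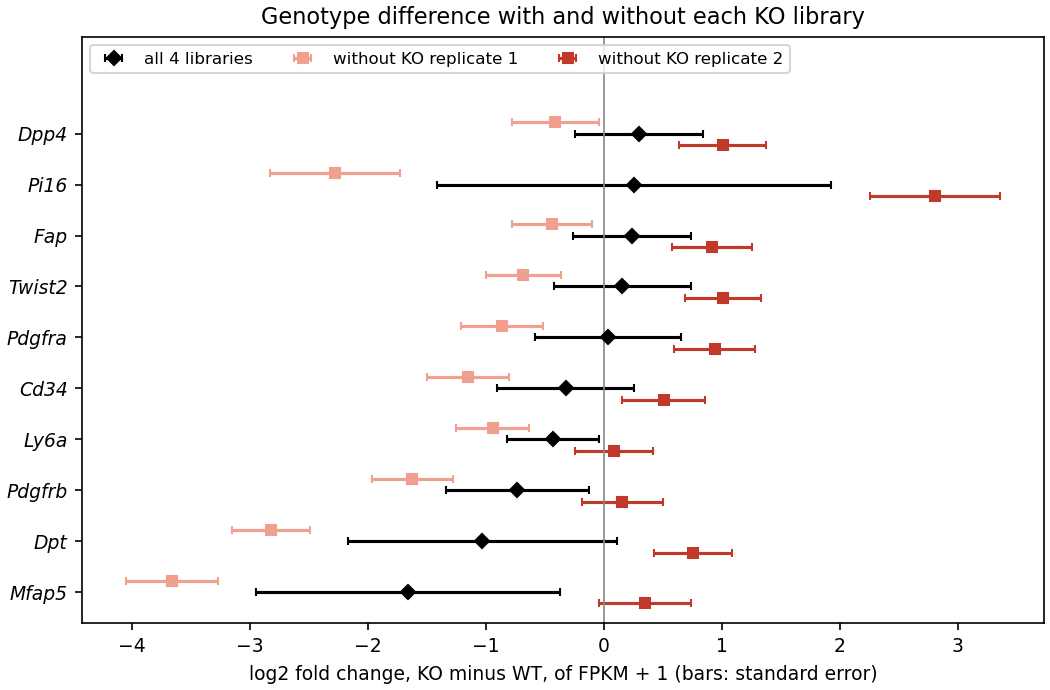
Log2 fold change of each fibroblast marker, KO minus WT, on the FPKM + 1 scale, with its standard error. With all 4 libraries (black) the values lie between -1.66 and 0.30, without KO replicate 1 (pale red) all 10 are below 0, and without KO replicate 2 (dark red) all 10 are above 0.

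The direction of the genotype difference depended on which KO library was kept. Without KO replicate 2, all 10 log2 fold changes were above 0, with a median of 0.84 and a range from 0.09 for Ly6a to 2.81 for Pi16. Then 0 of 10 markers were called, beside 0.33% of all genes, and 3 of 10 passed the unadjusted limit upward (Pi16 at 2.81, Dpp4 at 1.01 and Twist2 at 1.01), beside 5.63% of all genes. Without KO replicate 1, all 10 were below 0, with a median of -1.05. In that fit 4 of 10 markers were called lower, beside 9.2% of all genes: Mfap5 at -3.66 (adjusted p = 0.0016), Dpt at -2.82 (adjusted p = 0.00206), Pdgfrb at -1.62 (adjusted p = 0.0178) and Pi16 at -2.28 (adjusted p = 0.0297). With Cd34 at -1.15, 5 of 10 passed the unadjusted limit downward, beside 12.3% of all genes. In both fits the lone KO library was assumed to vary like the WT libraries, so these calls compare 1 KO mouse with WT mice.

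KO replicate 1 exceeded KO replicate 2 by more in these markers than in most genes. KO replicate 1 minus KO replicate 2 on the log2(FPKM + 1) scale had a median of 1.73 over the markers and of -0.03 over all tested genes. All 10 markers were above the 90th percentile of all genes, which was 1.00, and 7 were above the 95th percentile, which was 1.55. The largest differences were 5.10 for Pi16, 4.0 for Mfap5 and 3.58 for Dpt, and the smallest was 1.03 for Ly6a. KO replicate 2 was the lowest library in 33.3% of all genes, KO replicate 1 the highest in 18.9%, and both at once in 7.41%, beside 10, 8 and 8 of the 10 markers. The WT libraries differed less. WT replicate 1 minus WT replicate 2 had a median of 0.40 over the markers and 0.11 over all genes, was above 0 for 7 of 10 markers, and was smaller in size than the KO difference for all 10. With 1 library on each side these differences have no test.

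**Figure D3:**
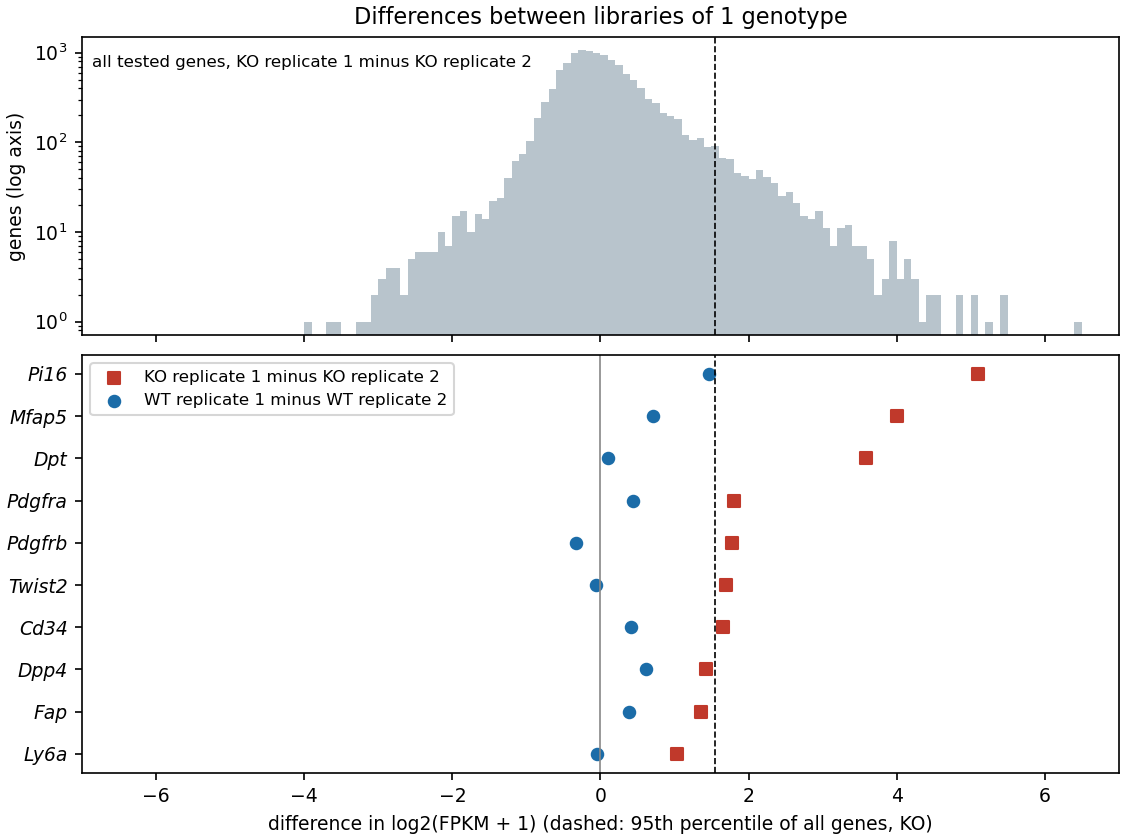
Upper panel, number of tested genes (log axis) by the difference between the KO libraries in log2(FPKM + 1). Lower panel, the same difference for each fibroblast marker (red squares) with the difference between the WT libraries (blue circles). The squares lie between 1.03 and 5.10, 7 of them beyond the dashed line at 1.55, the 95th percentile of all genes.

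Other genes of adventitial progenitors, the fibroblast reserve that Pi16 and Dpp4 mark, gave the same picture in part. Of 13 such genes, all tested, 10 log2 fold changes were below 0 with a median of -0.53 (0.21 without KO replicate 2), and 0 passed the unadjusted limit. KO replicate 2 was lowest for 11 of 13, and KO replicate 1 was highest as well for 6 of 13. Clec3b, which encodes tetranectin, came nearest to Pi16 in its KO ratio (the level in KO replicate 1 over that in KO replicate 2), at 80.3, with 33.4 and 16.4 FPKM in WT mice, as against 54.6 and 0.681 FPKM in KO mice. Cd248, the stromal marker endosialin, had a KO ratio of 27.9, Scara5 and Emilin2 of 13.7 each and Igfbp6 of 12.8. Efhd1 (0.231 FPKM) and Wnt2 (0.077 FPKM) were also lowest in KO replicate 2, at levels under 3 fragments on 1 kb, and no ratio is given for them. The ratios were smaller for Anxa3 (6.55), Procr (4.21), Creb5 (1.75) and Ackr3 (1.66). Sema3c was different, being highest in KO replicate 2 at 15.8 FPKM, and Cd55, a complement regulator, varied only between 12.5 and 14.7 FPKM over the 4 libraries.

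Among 13 mesenchymal transcription factors other than Twist2, 10 were tested (En1, Ebf2 and Tcf21 were too low), and KO replicate 2 was lowest for 9 of them. Their median log2 fold change was -0.35 (0.48 without KO replicate 2), with 0 past the unadjusted limit. Twist1, the close relative of Twist2, stood at 2.62 and 4.41 FPKM in WT skin, with 9.27 and 3.80 FPKM for KO replicates 1 and 2, so KO replicate 1 was highest as for Twist2 but KO replicate 2 lay within the WT range. The KO ratio of these factors was 8.91 for Ebf1, 7.42 for Osr1 and for Meox1, 4.32 for Meox2, 4.12 for Prrx2, 2.44 for Twist1, 2.24 for Prrx1, 2.10 for Zeb1, 1.42 for Osr2 and 1.30 for Tbx15, beside 4.76 for Twist2.

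The collagen and proteoglycan genes of fibroblasts had the same order as the markers in most cases. Of 12 other general fibroblast genes, KO replicate 2 was lowest for 11, and KO replicate 1 was highest as well for 9. Dcn, the decorin that dermatopontin binds, stood at 97.5 and 40.0 FPKM in the WT mice, compared with 153 and 9.89 FPKM in the KO mice, and Col3a1 at 72.4 and 60.9 FPKM in WT mice, against 114 and 6.45 FPKM in their KO counterparts. Their median log2 fold change was -1.01 (0.77 without KO replicate 2), and 2 of 12 passed the unadjusted limit downward, beside 4.14% of all tested genes, S100a4 at -1.54 (adjusted p = 0.248) and Vim at -1.74 (adjusted p = 0.264). S100a4 and Vim are also strongly made by leukocytes. For these 2 of 12 genes each KO library lay under both WT libraries, as in 20.5% of all tested genes. For 1 of 12 each KO library lay above both WT libraries, as in 35.3% of all tested genes. S100a4 stood at 318 and 211 FPKM in KO skin beside 649 and 873 FPKM in WT skin.

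The partners of Mfap5 in microfibrils and elastic fibres were likewise low in KO replicate 2, which was lowest for 7 of the 7 tested of 8 genes. KO replicate 1 was highest as well for 6. Eln, the elastin gene, stood at 8.14 and 12.1 FPKM in WT skin, with 20.9 and 0.796 FPKM for KO replicates 1 and 2, and Ltbp4, a latent TGF-beta binding protein, at 14.7 and 17.0 FPKM in the WT mice, compared with 25.9 and 11.8 FPKM in the KO mice. The KO ratio was 26.3 for Eln and 2.19 for Ltbp4, so Mfap5 and Eln were further apart between the KO mice than Ltbp4. The median log2 fold change of the 7 genes was -0.48 (0.68 without KO replicate 2), with 0 past the unadjusted limit.

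Genes of the dermal layers are given side by side, without a test of the difference between the lists. For 6 tested papillary genes KO replicate 2 was lowest in 2, Ntn1 and Pdpn, and the median log2 fold change was 0.31 (0.36 without KO replicate 2). The unadjusted limit was passed by 1 papillary gene upward, Col23a1 at 1.09 (adjusted p = 0.248), beside 6.16% of all tested genes, and by 0 downward. Col23a1 and Ntn1 were named after their values were seen. Ntn1, a netrin, had the order of Dpt, with KO replicate 1 at 11.5 times KO replicate 2. Pdpn, podoplanin, stood at 28.8 and 23.1 FPKM in WT mice, against 19.0 and 5.21 FPKM in their KO counterparts, whereas Lrig1, made by epidermal stem cells too, stood at 10.4 and 15.1 FPKM in WT skin, with 15.1 and 33.4 FPKM for KO replicates 1 and 2. For the 4 tested reticular genes KO replicate 2 was lowest in 4 and the median was -0.96 (0.04 without KO replicate 2). Mest passed the unadjusted limit downward at -2.02 (adjusted p = 0.259), as 4.14% of all tested genes did, and 0 passed it upward. Mgp, an inhibitor of calcification, stood at 68.2 and 65.3 FPKM in the WT mice, compared with 118 and 9.32 FPKM in the KO mice, an order like that of Dpt. Gpx3, a secreted peroxidase, stood at 437 and 373 FPKM in WT mice, against 243 and 172 FPKM in their KO counterparts. Over 5 genes of adipocyte progenitors the median log2 fold change was -0.11 (-0.21 without KO replicate 2). KO replicate 2 was lowest in 2 of these genes. The log2(FPKM + 1) level of KO replicate 1 minus that of KO replicate 2 had a signed median of 0.03. The KO libraries differed in both directions, from -1.15 for Pparg to 1.23 for Zfp423.

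Activated fibroblasts, which Fap marks, gave mixed values. Of 9 tested genes KO replicate 2 was lowest for 8, and the median log2 fold change was -0.24 (0.26 without KO replicate 2). Acta2, the smooth muscle actin of myofibroblasts and vessels, stood at 62.8 and 48.0 FPKM in WT skin, with 38.3 and 11.1 FPKM for KO replicates 1 and 2. Fn1, fibronectin, stood at 91.5 and 84.9 FPKM in the WT mice, compared with 20.6 and 1.09 FPKM in the KO mice, and passed the unadjusted limit downward at -3.73 (adjusted p = 0.248), the 1 of 9 genes to do so, beside 4.14% of all tested genes. Postn, periostin, ran against Fap in KO replicate 2. It stood at 58.6 and 30.9 FPKM in WT mice, against 106 and 175 FPKM in their KO counterparts. Both KO libraries were thus above both WT libraries, as in 35.3% of all tested genes. Postn was the 1 of 9 genes to pass the unadjusted limit upward, at 1.66 (adjusted p = 0.248), beside 6.16% of all tested genes.

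Markers of other cell types moved with the fibroblast markers in KO replicate 2. The 10 markers of endothelium, which also carries Cd34 and Ly6a, were lowest in KO replicate 2 in 10 of 10 cases, and their summed level was 140 and 218 FPKM in WT mice, as against 186 and 27.5 FPKM in KO mice. The 9 adipocyte markers were lowest there in 9 of 9 cases, with sums of 3960 and 10700 FPKM in WT mice, as against 4600 and 380 FPKM in KO mice. The 10 macrophage markers were lowest there in 10 of 10 cases, with sums of 2090 and 2120 FPKM in WT mice, as against 890 and 100 FPKM in KO mice, so for macrophages, unlike for the fibroblast markers, KO replicate 1 was below WT as well. Of 6 Schwann cell markers 5 were lowest there, with sums of 286 and 263 FPKM in WT mice, as against 316 and 77 FPKM in KO mice. Of 10 markers of pericytes and smooth muscle, which carry Pdgfrb, 8 were lowest there, with sums of 1240 and 1330 FPKM in WT mice, as against 1030 and 687 FPKM in KO mice. Des, which skeletal muscle also makes, supplied most of these sums, and the other 9 summed to 87.4 and 114 FPKM in WT skin, with 109 and 52.2 FPKM for KO replicates 1 and 2. Of the 8 T cell markers 5 were tested and 4 of these were lowest in KO replicate 2, with sums of 15.3 and 13.4 FPKM in WT skin and of 13.4 and 4.28 FPKM for KO replicates 1 and 2. Leaving out KO replicate 2 gave median fold changes (log2) of 0.02 for endothelium (-1.14 with all 4 libraries), -0.69 for adipocytes (-2.09), -1.09 for macrophages (-2.59), 0.44 for Schwann cells (-0.42), -0.00 for pericytes and smooth muscle (-0.46) and 0.12 for T cells (-0.38).

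Epithelial and muscle markers shared the pattern in some genes and not in their sums. The 10 epidermal keratinocyte markers summed to 5180 and 3750 FPKM in WT skin, with 11100 and 6040 FPKM for KO replicates 1 and 2, and KO replicate 2 was lowest, and KO replicate 1 highest, for 3 of 10, the outer-layer genes Krt1 (named after its values were seen), Krt10 and Lor. The basal keratin Krt14 stood at 2690 and 2740 FPKM in the KO libraries beside 1290 and 1210 FPKM in WT skin, while Lor, loricrin of the outer epidermis, stood at 2840 and 155 FPKM beside 1450 and 810 FPKM. The 5 markers of the hair follicle bulge, another site of Cd34, summed to 17.2 and 16.8 FPKM in the WT mice, compared with 36.1 and 42.1 FPKM in the KO mice. The hair shaft markers summed to 9.81 and 1.68 FPKM in WT mice, against 319 and 12.3 FPKM in their KO counterparts. Skeletal muscle markers summed to 27500 and 25100 FPKM in WT skin, with 16500 and 17600 FPKM for KO replicates 1 and 2, and KO replicate 2 was lowest for 4 of 10. Leaving out KO replicate 2 gave median fold changes (log2) of 1.18 for keratinocytes (1.10 with all 4 libraries), 1.4 for the bulge (1.10), 4.19 for the hair shaft (2.55) and -0.67 for skeletal muscle (-0.68). Without KO replicate 1 these medians were 1.12 for keratinocytes, 0.79 for the bulge, 0.51 for the hair shaft and -0.79 for skeletal muscle. The cell type markers listed at 0 in a library were the hair keratins Krt25, Krt27 and Krt35, the last named after its values were seen. The samples were labelled skin, and dermis, epidermis, fat and muscle RNA were present in all 4 libraries. Whether a differing tissue makeup had a part in the values of the fibroblast markers was not tested.

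**Figure D4:**
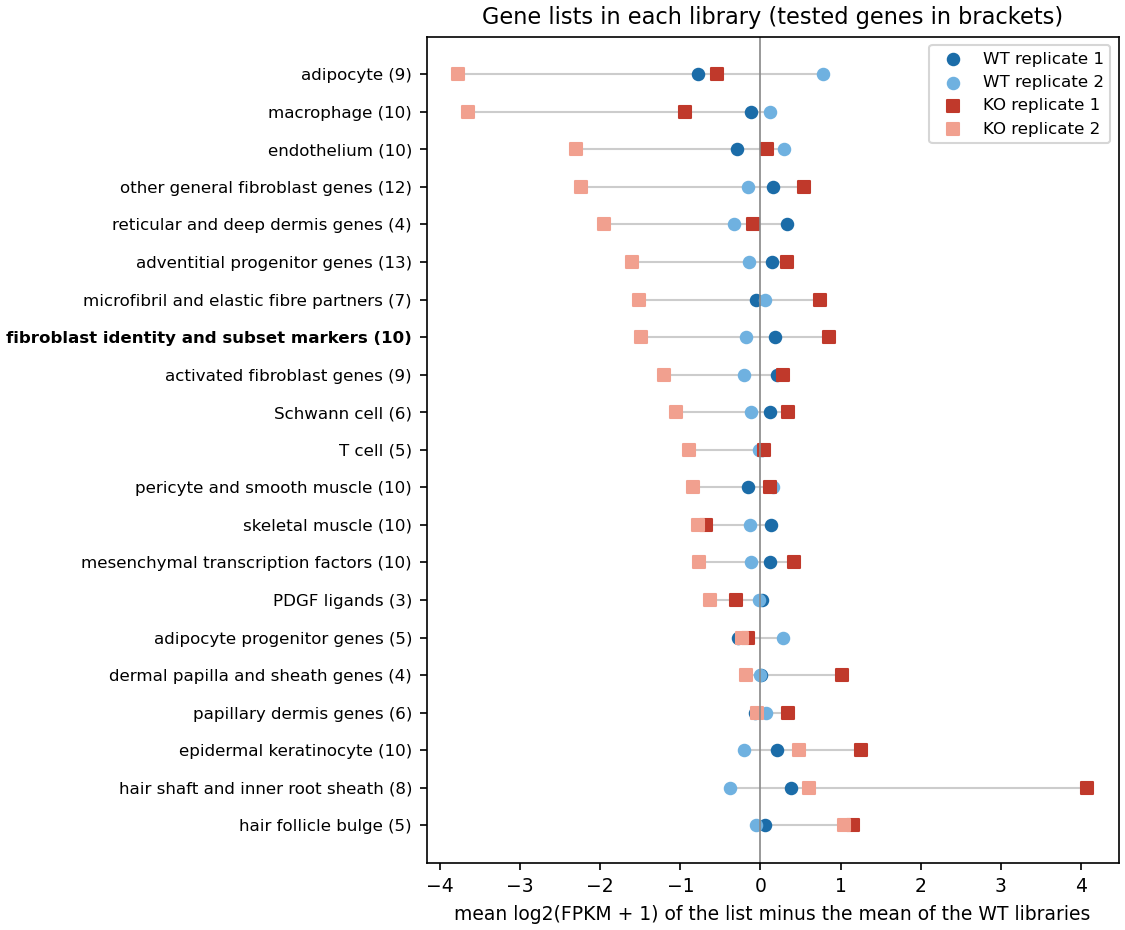
Mean log2(FPKM + 1) of each gene list in each library minus the mean of the WT libraries, with the number of tested genes in brackets and the grey line over the range of the 4 libraries. KO replicate 2 (pale red) is far below WT for the adipocyte, macrophage, endothelial, general fibroblast, reticular, adventitial and microfibril lists and the markers, but not for the keratinocyte, hair follicle, papillary dermis, dermal papilla or adipocyte progenitor lists.

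The genes most like the markers over the 4 libraries were found by the root mean square distance between a gene's centred log2(FPKM + 1) values and the mean of the markers, which was 0.34 and -0.03 in WT and 1.01 and -1.33 in KO skin. Among 8752 other genes with a mean of at least 5 FPKM the median distance was 0.919. The 10 nearest were Cpa3 (0.046), Mmp2 (0.094), Gm21320 (0.108), Lce1a2 (0.130), Tnnt1 (0.131), Mup18 (0.139), 2310050C09Rik (0.159), Olfml3 (0.170), Tmem229b (0.176) and Efemp1 (0.196). Cpa3, a peptidase of mast cells, stood at 5.99 and 4.2 FPKM in WT mice, against 9.31 and 1.20 FPKM in their KO counterparts. Mmp2, a gelatinase of fibroblasts, stood at 22.8 and 16.5 FPKM in WT skin, with 36.4 and 5.33 FPKM for KO replicates 1 and 2. Lce1a2, which belongs to the outer epidermis, and Tnnt1, a slow muscle troponin, had like orders too, so a profile of this shape over 4 libraries was not particular to fibroblast genes. The markers' own distances ran from 0.241 for Cd34 to 1.087 for Pi16.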

How the data were processed

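Skin RNA of 2 WT and 2 GSDMD KO mice was grouped by the labels' genotype and replicate. The labels' processing notes name HISAT2 2.0.1, StringTie 2.0.6 and the build mm9, and the methods describe read counts per gene and a test on them. In the deposited table, named for counts, non-integers made up 99.993% of the values above 0, and the values were read as FPKM, which the authors had already divided by length and depth. The program that made them is not given in the sources used here. Depth was estimated from the spacing of low values in 2710 genes (80.9% to 85.1% of low values lay within 0.15 of a whole fragment) and is approximate.

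Genes reaching 1 FPKM in 2 or more libraries, 13027 in all, were fitted as log2(FPKM + 1), which understates changes of low genes, with limma 3.58.1 in R 4.3.3 (genotype, empirical Bayes with a mean-variance trend, Benjamini-Hochberg adjustment over all 13027 genes), and all 10 markers passed this filter. The threshold is that of the methods. The code of the fit was tried on simulated data, and whether it can find changes at the spread of these 4 libraries was not tested. Tables were made with Python 3.11.15 and pandas 2.3.3. The markers and lists were chosen with earlier results of these data known. Named genes were the 10 markers, the PDGF ligands, the transcription factors and adventitial genes, at most the 4 most abundant genes of other lists and the 10 genes nearest in profile, and genes outside this rule are marked where they are named. Alternatives were other pseudocounts, filters, scalings, no trend, a replicate block and leaving out each library. Promoters were those of Cd34, Dpp4, Dpt, Pdgfra, Pi16 and Twist2 in RefSeq (GRCm38.p6). Fap, Ly6a and Mfap5 were not matched, and that of Pdgfrb was not used here.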

Additional observations from a re-analysis of the deposited data

How the results depend on the processing

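Of 95 fold changes of the markers recomputed with another pseudocount, filter, scaling, trend or block, 89 kept their sign. The filters, the trend and the blocks cannot move a fold change here, so only pseudocounts and scalings could turn one. With a pseudocount of 0.1, 8 of 10 markers kept their sign, and 9 of 10 did with 0.5 and under each of the 3 scalings. The 6 fold changes that turned were those of Pdgfra with pseudocounts 0.1 (-0.24) and 0.5 (-0.04), TPM (-0.03), upper-quartile (-0.01) and median-ratio scaling (-0.02), and that of Pi16 with a pseudocount of 0.1 (-0.19). A mean of at least 5 FPKM left 5 markers, 4 below 0 and 1 above, and their median was -0.43, beside -0.14 for all 10. With a pseudocount of 0.1 the median of the 10 was -0.29, with 7 below 0 and 3 above. No pseudocount, filter, scaling, trend or block setting called a marker, and counts of non-overlapping groups and of KO replicate 2 being lowest held under the 3 scalings. The count of markers with KO replicate 1 highest and KO replicate 2 lowest moved from 8 to 10 under TPM scaling (Pdgfrb and Mfap5 joined) and to 7 under upper-quartile and median-ratio scaling (Ly6a left). The checks of these orders, and the lists without a KO library, were added after the data were seen. Leaving out 1 library moved the log2 fold change from -0.86 to 0.94 for Pdgfra, -1.62 to 0.16 for Pdgfrb, -0.41 to 1.01 for Dpp4, -0.44 to 0.92 for Fap, -2.28 to 2.81 for Pi16, -2.82 to 0.76 for Dpt, -1.15 to 0.51 for Cd34, -0.94 to 0.09 for Ly6a, -3.66 to 0.35 for Mfap5 and -0.68 to 1.01 for Twist2. The number called then ran from 0 to 4, that past the unadjusted limit from 0 to 5 downward and from 0 to 3 upward, and the markers' median from -1.05 to 0.84, with both ends set by the KO libraries.

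Same-numbered libraries had deviations correlated at -0.20, and nothing in the labels or methods ties a number to a litter or batch. With the replicate block, 0 markers were called, 1 passed the unadjusted limit downward, and 686 genes lower and 907 higher passed it. With crossed numbers, added after the data were seen, 681 and 819 genes did and 0 were called. With 2 libraries a group, intervals of the fold changes spanned 0 for every marker, and the levels in KO replicate 2 rested on about 14.3 (Mfap5) to 1310 (Ly6a) fragments.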

Other observations

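Of 10 genes of the dermal papilla and sheath, the fibroblasts that govern hair growth, 4 were tested, with a median log2 fold change of 0.67 (1.04 without KO replicate 2), and they moved in different ways. Crabp1, a retinoic acid binding protein, stood at 6.23 and 7.64 FPKM in the WT mice, compared with 25.8 and 12.5 FPKM in the KO mice. Wif1, a Wnt inhibitor, stood at 0.865 and 0.479 FPKM in WT mice, against 5.74 and 2.38 FPKM in their KO counterparts. For Crabp1 and Wif1 both KO libraries were above both WT libraries, as in 35.3% of all tested genes, and the unadjusted limit was passed upward, as in 6.16% of them, at 1.26 and 1.52, with adjusted p-values of 0.254 and 0.248 by limma. Sox18, also an endothelial gene, was lowest in KO replicate 2 at 2.41 FPKM, beside 12.3 and 21.5 FPKM in WT skin and 15.9 FPKM in KO replicate 1. Inhba, an activin subunit, stood at 1.30 and 0.387 FPKM in WT skin, with 1.23 and 0.596 FPKM for KO replicates 1 and 2. The other 6 genes were too low to be tested.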
